A study of Mus musculus with 6 samples.

Results

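The chemokine and interleukin genes described here were the rows of the expression table whose symbols begin with Cxcl, Cxcr, Ccl, Ccr or Il followed by a digit, and 136 of the 23361 genes in the table met this rule. They comprised 75 genes for secreted ligands, counting the IL-1 family receptor antagonists among them, 59 genes for receptors or binding proteins, and 2 genes, Il16 and Il4i1, that belong to neither set. The rule uses symbols and no measured value. RNA was sequenced from taste cells that had been enzymatically freed from the circumvallate and foliate (CV/Fol) papillae of C57BL/6 mice, and the question was how expression differs between mice aged 2 months and 6 months. There were 3 pooled libraries at each age, each pool holding cells of 4 mice at 2 months and of 3 mice at 6 months, and the labels name no treatment or genetic change at either age. The table gives a single FPKM per gene and age, a level scaled to transcript length and library total, and this value was estimated over the libraries of that age. The spread between pools therefore could not be measured, and each difference below is given without a test, an error or a replicate check. The depth of the libraries is unknown.

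Chemokines are small secreted proteins that attract leukocytes through G protein-coupled receptors. CXC chemokines that bind Cxcr2 mainly attract neutrophils, and CC chemokines mainly attract monocytes, eosinophils, dendritic cells and lymphocytes. Interleukins are secreted signals between immune and tissue cells. The IL-1 family, which includes IL-1α, IL-1β, IL-18, IL-33 and the IL-36 proteins, is made in large part by epithelial cells and acts through MyD88 and NF-κB, whereas most other interleukins act through JAK kinases and STAT factors. Stratified epithelia such as that of the tongue store IL-1α and IL-33 and release them on injury.

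Genes whose mean over the 2 ages reached 1 FPKM are called expressed. Of the 136 genes, 60 were expressed, 39 had a mean from 0.1 to 1 FPKM and 37 had a mean under 0.1 FPKM, among them 15 listed at 0 at both ages. A few genes held most of the signal. The 10 highest made up 62.0% of the summed FPKM of the 136 genes at 2 months and 59.4% at 6 months. The highest level was that of Il33, the alarmin IL-33, with 138.9 FPKM at 2 months against 128.8 at 6 months. Cxcl14, a chemokine made by resting epithelia, followed with 127.1 and 108.4 FPKM. No other gene of the group had a mean of 100 FPKM, and Il1r2, Il17rc and Il1a came next with means between 50 and 61 FPKM.

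Differences with age are those of log2(FPKM + 1), with the 2 month value subtracted from the 6 month value, a scale that understates the change of low genes. Of the 60 expressed genes, 35 had the lower value at 6 months and 25 the higher, with a median difference of -0.03 against -0.01 over all 12652 expressed genes, of which 53.7% were lower. Past a 1.5-fold difference, 7 genes (11.7%) were lower at 6 months, where 1.72% of all expressed genes were, and 1 gene (1.67%) was higher, where 1.05% of all were. Leaving out microRNA and small nucleolar RNA genes and genes listed at 0 at 1 age, 1.17% of the other 12427 expressed genes were past the threshold in the lower direction and 0.443% in the higher. The 7 lower genes were Il1f6, Ccl9, Il18, Il1f5, Ccl6, Cxcl17 and Cxcl1, and the higher gene was Ccl11. All 8 encode ligands. None of the 28 expressed receptor genes was past the threshold, where 1.72% of all expressed genes were lower and 1.05% higher. With 0.1 added to each FPKM in place of 1, the receptor genes Il20ra (-0.75) and Il22ra1 (0.82) were past it. The median difference of the 28 receptor genes was -0.01, or 0.07 after both ages were scaled to the same total. Of the 32 expressed ligand genes, 7 (21.9%) were past the threshold in the lower direction. The median of these 32 ligand genes was -0.11, or -0.01 after that scaling.

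**Figure D1:**
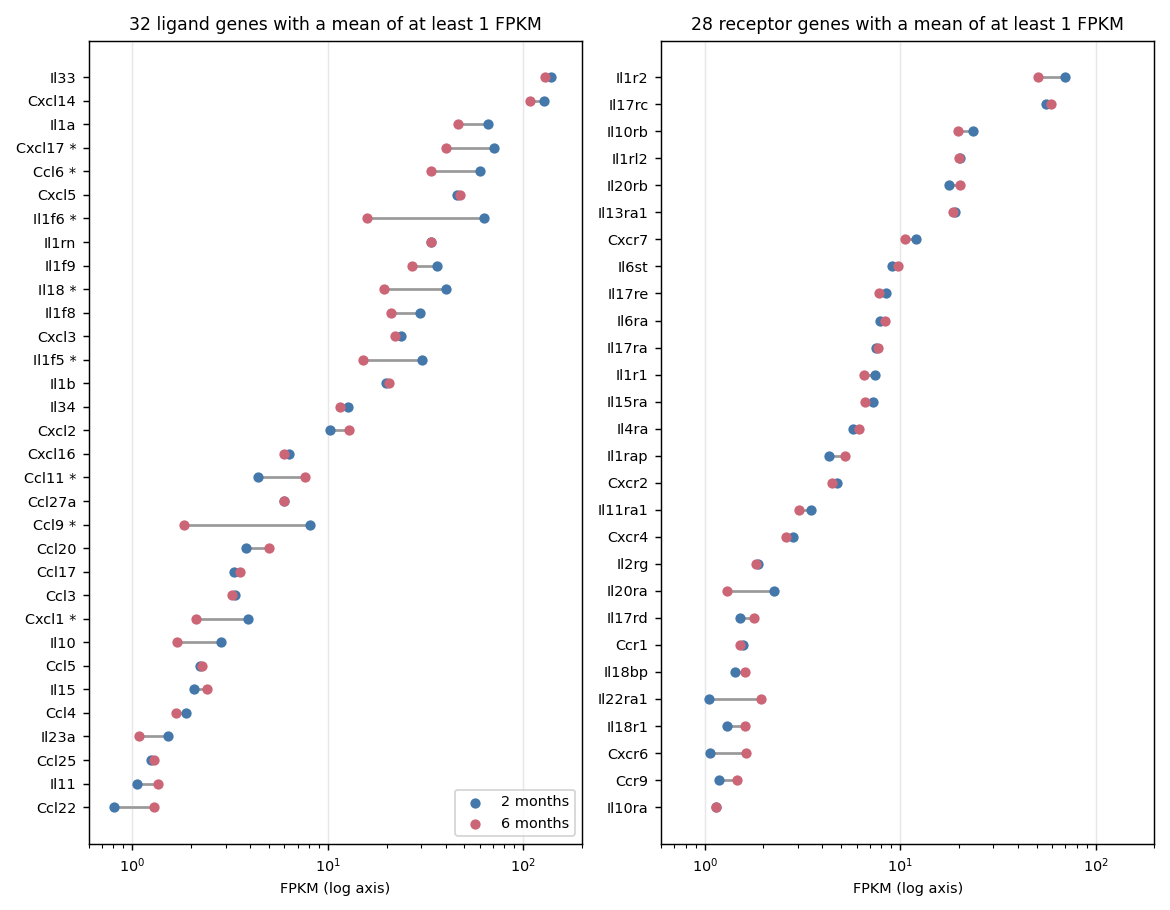
FPKM at 2 months (blue) and 6 months (red) of the 32 ligand and 28 receptor genes whose mean reached 1 FPKM, on log axes, with 1 value per gene and age and genes ordered by mean. Asterisks mark the 8 genes past a 1.5-fold difference on the log2(FPKM + 1) scale, all of them ligands, of which Ccl11 is the only one higher at 6 months.

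The genes past the threshold had means both below and above 10 FPKM, and counting error could not be measured at either level. Among genes with a mean from 10 to 100 FPKM, 5 of 21 were lower past 1.5-fold against a background of 1.53% at that level, and none was higher against 0.789%. Among genes with a mean from 1 to 10 FPKM, 2 of 37 were lower against 1.53% and 1 was higher against 0.947%. Of the 2 genes with a mean of 100 FPKM or more, neither was past 1.5-fold, where 4.27% of all genes at that level were lower and 3.58% higher. Past a 2-fold difference there remained 3 lower genes, Il1f6, Ccl9 and Il18, where 1.04% of all expressed genes were, and no higher gene, where 0.561% were. With a pseudocount of 0.1 in place of 1, which understates low genes less, 9 genes were lower past 1.5-fold where 2.17% of all were, and 3 were higher where 1.46% of all were. At the other end, 40 of the 60 genes (66.7%) differed by less than 1.2-fold, compared with 89.2% of all expressed genes.

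**Figure D2:**
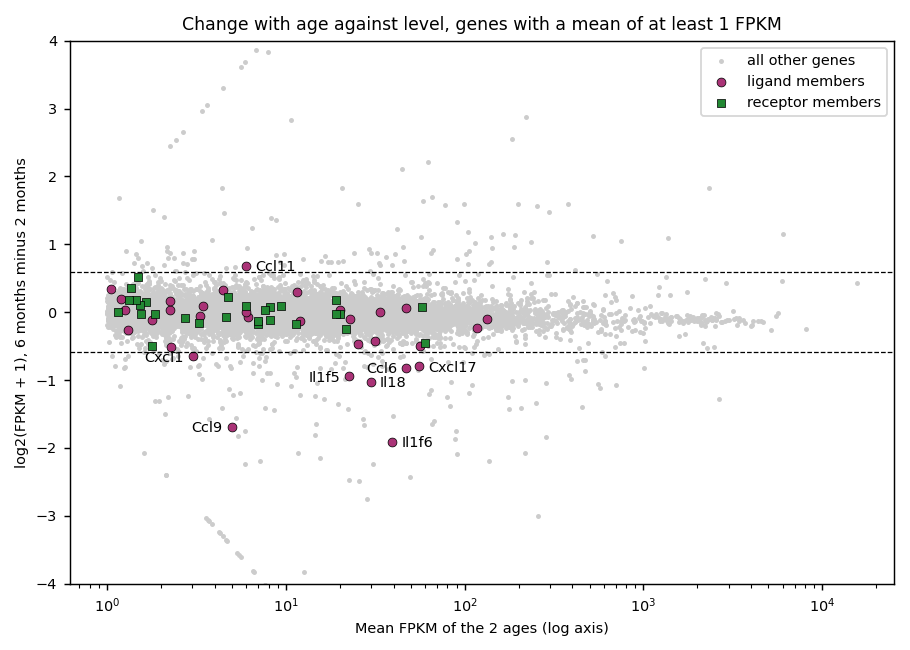
Difference with age on the log2(FPKM + 1) scale against the mean FPKM of the 2 ages (log axis) for all expressed genes (grey), ligand genes (circles) and receptor genes (squares). Dashed lines mark a 1.5-fold difference; the 8 named genes lie beyond them, and 66 grey genes beyond 4 log2 units are not drawn.

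The CXC chemokines were the second most abundant class, with a summed level of 289.6 FPKM at 2 months against 240.4 at 6 months over 13 genes, of which 7 were expressed. Cxcl14 accounted for the largest share, and its difference was -0.23. Cxcl17, a mucosal chemokine that attracts myeloid cells, was at 70.7 FPKM at 2 months against 40.2 at 6 months, a difference of -0.80. Its gene lies at chr7:25400053-25412886 and overlaps the long noncoding RNA gene 4732471J01Rik, which was at 3.41 and 3.10 FPKM. The 4 expressed ligands of the neutrophil receptor Cxcr2 that met the symbol rule differed in direction. Ppbp, a chemokine gene outside the rule, was at 172.7 and 151.1 FPKM and is not counted here. Cxcl5 was at 45.9 and 47.7 FPKM, and Cxcl3 was at 23.7 and 21.9 FPKM. Cxcl1 was at 3.89 FPKM at 2 months against 2.12 at 6 months, a difference of -0.65, whereas its neighbour Cxcl2 was at 10.3 and 12.8 FPKM, a difference of 0.29. Cxcl16, the ligand of Cxcr6, was at 6.31 and 5.94 FPKM. The interferon-induced chemokines were low, with Cxcl10 at 1.13 and 0.824 FPKM and both Cxcl9 and Cxcl11 under 0.2 FPKM at each age. Cxcl12, the ligand of Cxcr4 and of the scavenging receptor Cxcr7, was at 0.370 and 0.308 FPKM.

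The CC chemokines summed to 97.0 FPKM at 2 months against 68.9 at 6 months over 24 genes, and 11 were expressed. The 2 lower genes of the class past 1.5-fold were the adjacent genes Ccl6 and Ccl9, which encode myeloid chemokines that bind Ccr1. Ccl6 was at 60.4 FPKM at 2 months against 33.7 at 6 months, a difference of -0.82. Ccl9 was at 8.13 FPKM and 1.83 FPKM, a difference of -1.69 and a 4.45-fold lower level at 6 months. Ccl6 overlaps the long noncoding RNA gene E230016K23Rik, which was at 1.03 and 0.727 FPKM. Ccl11 (eotaxin), which attracts eosinophils, was higher at 6 months, with 7.64 FPKM against 4.37 FPKM and a difference of 0.69, and its receptor gene Ccr3 was listed at 0 at both ages. Ccl20, which attracts Ccr6-bearing dendritic cells and lymphocytes, was at 3.82 FPKM at 2 months against 5.02 at 6 months, a difference of 0.32. The remaining expressed CC chemokines lay between 0.8 and 6 FPKM. Ccl27a, made by keratinocytes, was at 5.96 FPKM at both ages. Ccl3, Ccl4, Ccl5, Ccl17 and Ccl25 each differed by less than 0.12 log2 units. Ccl22, named after its values were seen, was at 0.806 and 1.29 FPKM. Ccl2, the main monocyte attractant, was at 0.353 and 0.280 FPKM. Ccl8, Ccl26, Ccl27b, Ccl21b and Ccl21c were listed at 0, and the Ccl21 and Ccl27 copies are near-identical genes whose reads can be split between them or lost.

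Receptors for these chemokines were scarce and differed little with age. Of 18 chemokine receptor genes, 6 were expressed, and all 18 together summed to 26.1 FPKM at 2 months against 25.1 at 6 months. Cxcr7, an atypical receptor that scavenges Cxcl12, was the highest with 12.1 and 10.6 FPKM. Cxcr2 was at 4.77 and 4.47 FPKM, Cxcr4 at 2.82 and 2.62 FPKM, and Ccr1 at 1.57 and 1.52 FPKM. Cxcr6 was at 1.07 and 1.64 FPKM, a difference of 0.35, and it lies within Fyco1, a gene at 10.1 FPKM at 2 months, and reads of one could be counted to the other. Ccr9, the receptor of Ccl25, was at 1.19 and 1.47 FPKM. Ccr2, Ccr4, Ccr6, Ccr7, Ccr8 and Cxcr3 were each under 0.5 FPKM at both ages.

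In bulk RNA such as this, fewer cells of a type and less RNA per cell cannot be told apart. Among 26 leukocyte marker genes, 13 were expressed, and the median difference was 0.03. None of the 13 was past a 1.5-fold difference, where 1.72% of all expressed genes were lower and 1.05% higher. The 26 marker genes summed to 585.3 FPKM at 2 months against 534.2 at 6 months. Lyz2, Cd74, S100a9 and S100a8 held most of this sum, so it is no measure of leukocyte content. Cd74 was at 101.7 and 103.8 FPKM and S100a8 at 65.4 and 56.1 FPKM. Which cells made these transcripts was not tested. The pan-leukocyte gene Ptprc (CD45) was at 1.54 and 1.65 FPKM. Lyz2, listed as a macrophage and neutrophil gene, was at 293.3 and 253.7 FPKM. S100a9, listed as a neutrophil gene, was at 75.2 and 69.8 FPKM. Of the 13, 5 were lower and 8 higher at 6 months, and among macrophage genes the differences ran from -0.44 for Cd68 to 0.22 for Csf1r. The T cell gene Cd3g was at 1.55 and 1.31 FPKM and the T cell gene Cd3e at 0.370 and 0.822 FPKM, the B cell gene Ms4a1 was under 0.1 FPKM at both ages, and the mast cell and basophil gene Fcer1a was listed at 0.

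The IL-1 family ligands were the most abundant class and carried the largest summed difference. Their 10 genes summed to 458.0 FPKM at 2 months against 328.3 at 6 months. Of 9 expressed, 7 had the lower value at 6 months, where 53.7% of all expressed genes did. Of the 9, 3 were lower past 1.5-fold, where 1.72% of all expressed genes were. The median difference was -0.47. Il1f6, which encodes IL-36α, had the largest difference of the 60 genes on the log2(FPKM + 1) scale, with 62.7 FPKM at 2 months against 15.9 at 6 months, a difference of -1.91 and a 3.94-fold lower level. With a pseudocount of 0.1 the order turned, with -2.09 for Ccl9 and -1.97 for Il1f6. The other IL-36 agonist genes were lower by less. Il1f8 (IL-36β) was at 29.7 and 21.1 FPKM, a difference of -0.47, and Il1f9 (IL-36γ) was at 36.2 and 26.8 FPKM, a difference of -0.42. Il1f5, which encodes the antagonist of the IL-36 receptor, was at 30.2 FPKM at 2 months against 15.2 at 6 months, a difference of -0.95. Agonists and antagonist of the IL-36 receptor were both lower.

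Il18, a cytokine stored as a precursor and released after caspase cleavage, was at 40.4 FPKM at 2 months against 19.3 at 6 months, a difference of -1.03. Its gene overlaps Bco2, at 1.23 and 0.672 FPKM, and Tex12, listed at 0 and at 0.0479 FPKM. The paired agonists of the IL-1 receptor differed from each other. Il1a was at 65.9 and 46.6 FPKM, a difference of -0.49, whereas Il1b, the inflammasome-processed form, was at 19.9 and 20.4 FPKM, a difference of 0.03. Il1rn, the antagonist of the same receptor, was at 33.7 and 33.8 FPKM, and Il33 differed by -0.11. Il1f10 was under 0.5 FPKM at both ages.

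The receptors of the family differed less. Il1r2, the decoy receptor that binds IL-1 without signalling, was the most abundant receptor gene of all 59, with 69.5 FPKM at 2 months against 50.7 at 6 months, a difference of -0.45. The signalling receptor Il1r1 was at 7.47 and 6.52 FPKM, so the decoy exceeded it in FPKM at both ages. The IL-36 receptor gene Il1rl2 was at 20.3 and 20.0 FPKM, a difference of -0.02, beside the lower values of its ligands. The shared accessory chain Il1rap was at 4.33 and 5.21 FPKM. Il18r1 was at 1.30 and 1.61 FPKM, and Il18bp, the soluble inhibitor of IL-18, was at 1.43 and 1.61 FPKM. Il1rl1, the receptor of IL-33, was at 0.0962 and 0.156 FPKM, although its ligand had the highest level of the group.

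Some marker lists of other cell types differed in the same direction as the IL-1 family ligands, and others did not. Cornifying keratinocyte markers, a list added after the data were seen, summed to 2370 FPKM at 2 months against 1603 at 6 months, and 3 of 6 expressed genes were lower past 1.5-fold. Krt10 was at 149.7 and 70.5 FPKM, and Lor at 1292 and 732.9 FPKM. Of 20 late cornified envelope genes, also added after the data were seen, 18 were expressed. All 18 were lower at 6 months, 17 of them past 1.5-fold. The 20 genes together summed to 2861 FPKM at 2 months against 690.1 at 6 months. These genes are close copies of each other, so values of single copies are uncertain. Markers of serous glands, which drain into the trenches of these papillae, summed to 436.0 and 152.5 FPKM, and 3 of 5 expressed genes were lower past 1.5-fold. Skeletal muscle markers went the other way, from a sum of 9.37 FPKM to 21.0 FPKM, with all 5 expressed genes higher past 1.5-fold. Basal keratinocyte markers differed less, with Krt5 at 2180 and 1962 FPKM and Krt14 at 1287 and 1533 FPKM. Krt4 was listed at 7334 FPKM at 2 months and at 0 at 6 months, and Krt13 was listed at 0 at both ages, so a listed 0 was not read as absence of a transcript. None of the 12 expressed taste cell markers was past 1.5-fold, where 1.72% of all expressed genes were lower and 1.05% higher. Of the 12, 4 were lower and 8 higher at 6 months, with a median difference of 0.15. Their differences ran from -0.25 for Krt8 to 0.47 for Tas1r3. The taste cell marker list summed to 544.8 and 511.2 FPKM, and Krt8, its highest gene, was at 234.3 and 196.7 FPKM. Trpm5 was at 29.1 and 27.7 FPKM. The fibroblast gene Dcn was at 42.0 and 27.3 FPKM, and collagen genes Col1a1 and Col3a1 were under 0.2 FPKM. Of 6 endothelial markers, 2 were expressed and neither was past 1.5-fold. Whether cell content differed, and what part it had in the ligand results, was not tested.

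**Figure D3:**
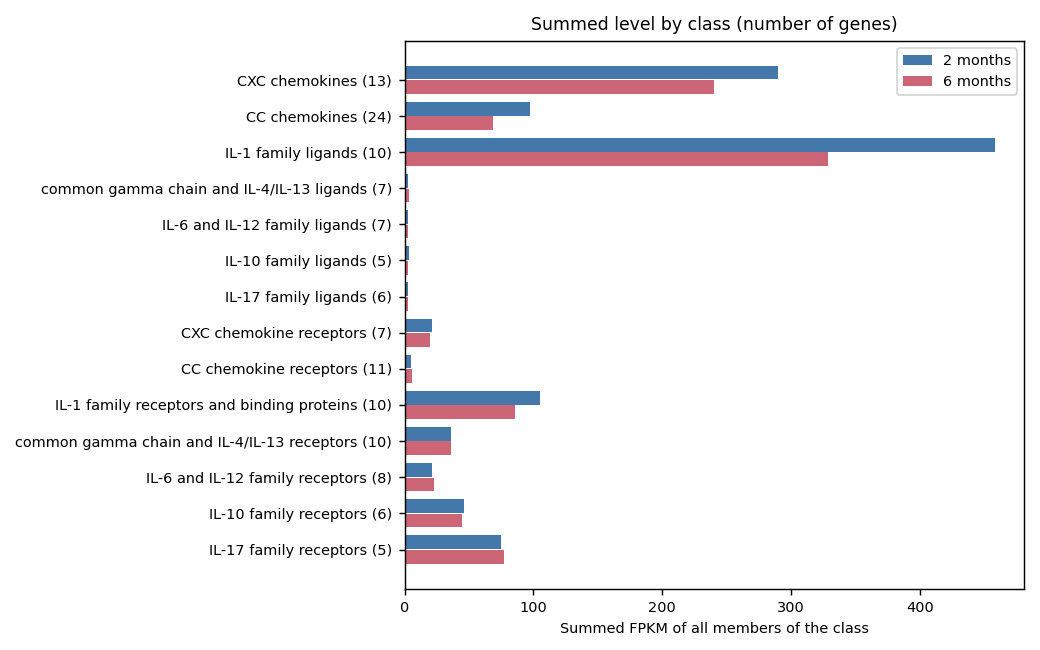
Summed FPKM of all genes of each class at 2 months (blue) and 6 months (red), with the number of genes in brackets. IL-1 family ligands and CXC and CC chemokines have visibly shorter bars at 6 months, and the receptor classes differ less.

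Interleukins outside the IL-1 family were represented mainly by receptors. Of 28 such ligand genes, only Il34, Il10, Il15, Il23a and Il11 were expressed. Il34, which binds the macrophage growth factor receptor Csf1r, was at 12.6 and 11.5 FPKM. Il10, an anti-inflammatory cytokine, was at 2.84 FPKM at 2 months against 1.69 at 6 months, a difference of -0.51 that lies just under the threshold. Il15 was at 2.06 and 2.42 FPKM. All 6 ligand genes of the IL-17 family were below 1 FPKM, with Il17c, the epithelial member, at 0.723 and 0.304 FPKM. Il6, Il22, Il12a, Il20, Il3, Il9 and Il31 were listed at 0 at both ages.

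Several receptors for these ligands were well expressed. Il17rc, a chain of the receptor for IL-17A and IL-17F, was at 56.1 and 59.4 FPKM, and its partner Il17ra was at 7.55 and 7.74 FPKM. Il17re, the receptor for IL-17C, was at 8.52 and 7.80 FPKM. Il10rb, a chain shared by the receptors for IL-10, IL-22 and interferon lambda, was at 23.7 and 19.7 FPKM, a difference of -0.25. Il20rb was at 17.8 and 20.3 FPKM. Its partner chain Il20ra was at 2.26 and 1.30 FPKM, a difference of -0.50, while Il22ra1, which also pairs with Il20rb, was at 1.05 and 1.94 FPKM, a difference of 0.52. Il20ra and Il22ra1 were named after their values were seen. Both lie just inside 1.5-fold on the log2(FPKM + 1) scale and past it with a pseudocount of 0.1. The chains for IL-4 and IL-13 were present, with Il13ra1 at 19.2 and 18.7 FPKM and Il4ra at 5.74 and 6.18 FPKM, whereas Il4 and Il13 were each below 0.1 FPKM. Il6st, the signalling chain shared by the IL-6 family, was at 9.08 and 9.73 FPKM, and Il6ra at 7.90 and 8.38 FPKM. Il15ra was at 7.29 and 6.60 FPKM and Il2rg, the common gamma chain, at 1.87 and 1.82 FPKM.

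A chosen list held 60 ligand and receptor pairs with both genes in the table. Both partners were expressed in 18, the receptor alone in 11, the ligand alone in 9 and neither in 22. The list is incomplete and leaves out Ccl6 and Ccl9 with Ccr1 and Il1f5 with Il1rl2. In the pairs of Il1f6, Il1f8 and Il1f9 with Il1rl2, the ligand gene was lower at 6 months by 0.42 to 1.91 log2 units. The receptor gene had a difference of -0.02. After scaling to the same total, the ligand differences ran from -0.33 for Il1f9 to -1.82 for Il1f6, and the receptor difference was 0.07. In the pair of Il18 with Il18r1 the ligand difference was -1.03 and the receptor difference 0.19. In the listed pairs of Cxcr2, which do not include Ppbp, the receptor difference was -0.08 and the ligand differences ran from -0.65 for Cxcl1 to 0.29 for Cxcl2. These are levels in mixed RNA and do not place ligand and receptor in the same cells.

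**Figure D4:**
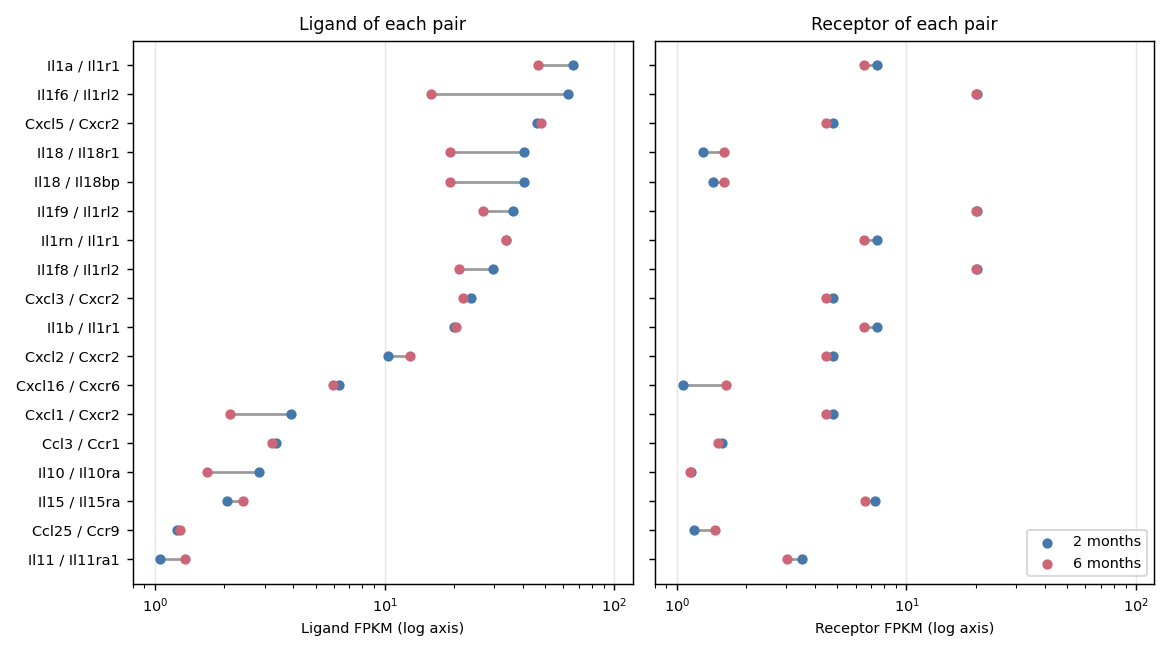
FPKM (log axes) of the ligand (left) and the receptor (right) in the 18 listed pairs with both genes expressed, at 2 months (blue) and 6 months (red). Ligand values differ more with age than receptor values in the pairs of Il1f6 and Il18.

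Many of these genes lie in clusters, and 10 runs of at least 3 of them with starts less than 500 kb apart were found in GRCm38. The run at chr2:24153172-24351491 holds Il1f8, Il1f9, Il1f6, Il1f5, Il1f10 and Il1rn in this order. Its 4 genes of the IL-36 group had differences from -0.42 to -1.91, and Il1rn at the end of the run had 0.0047. The run at chr11:83525778-83664683 holds Ccl5, Ccl9, Ccl6, Ccl3 and Ccl4, and Ccl9 and Ccl6 in its middle had -1.69 and -0.82 while the outer genes had between -0.12 and 0.03. Ccl3 and Ccl4 overlap in the annotation, so reads there could be assigned to either. In the run at chr11:82035577-82179812, Ccl11 was the only expressed gene of 6. The run at chr5:90759298-90905938 holds Cxcl5, Cxcl3, Il8, Cxcl1 and Cxcl2 together with the platelet chemokine genes Ppbp, at 172.7 and 151.1 FPKM, and Pf4, at 2.88 and 1.29 FPKM. Il8 is the older symbol of Cxcl15 in this annotation. In the receptor run at chr1:40084692-40551707, the 4 expressed genes Il1r2, Il1r1, Il1rl2 and Il18r1 had differences from -0.45 to 0.19.

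**Figure D5:**
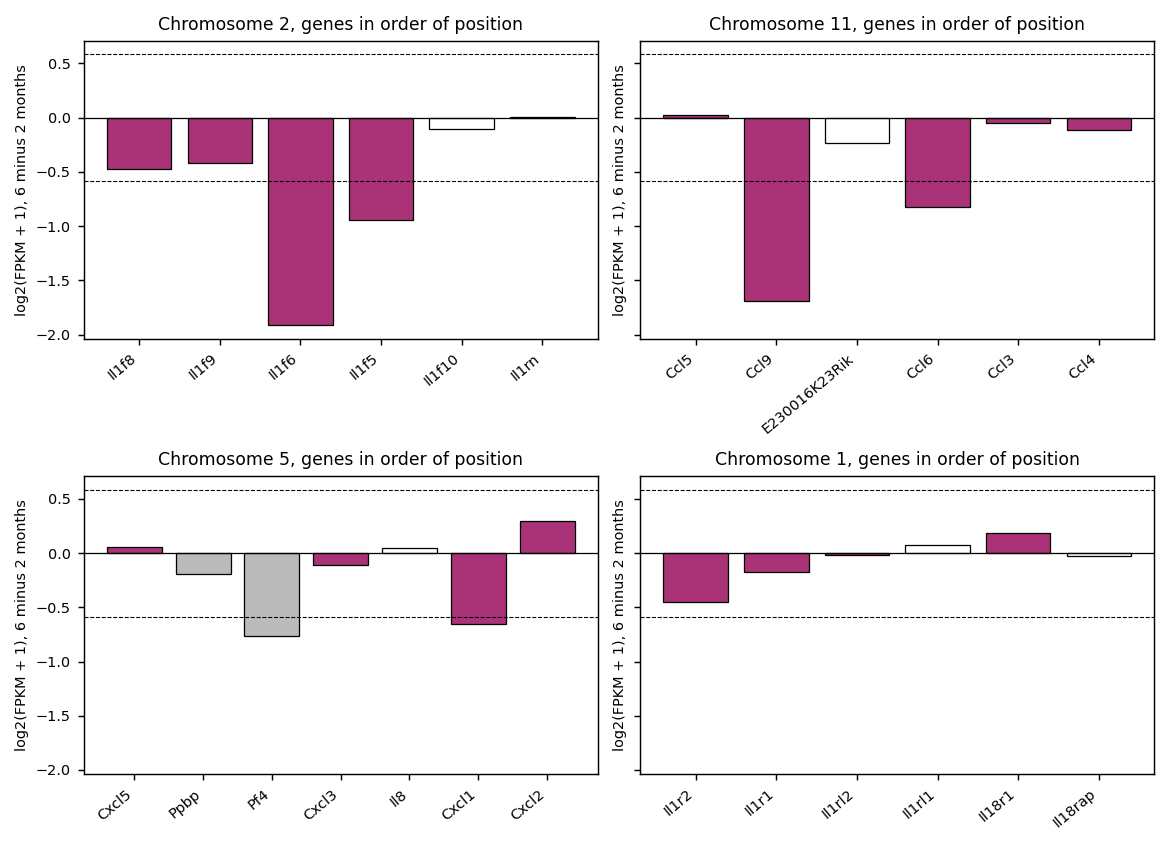
Difference with age (log2(FPKM + 1), 6 minus 2 months) of genes in 4 clusters, in order of position. Filled purple bars are expressed genes of the group, grey bars other expressed genes, white bars genes under 1 FPKM, and dashed lines a 1.5-fold difference; Il1f6 and Il1f5, Ccl9 and Ccl6, and Cxcl1 and Pf4 lie beyond the lower line.

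The proximal promoters of 2 neighbouring pairs are shown because the genes of each pair sit side by side, those of the first pair both being lower at 6 months and those of the second differing in direction. Each line gives the 150 bases before the annotated start, from RefSeq on GRCm38.p6, 5′ to 3′ on the gene's strand, and capitals mark matches to the AP-1 motif TGANTCA or the NF-κB motif on either strand.
Ccl9 promoter, chr11:83578637-83578786, minus strand: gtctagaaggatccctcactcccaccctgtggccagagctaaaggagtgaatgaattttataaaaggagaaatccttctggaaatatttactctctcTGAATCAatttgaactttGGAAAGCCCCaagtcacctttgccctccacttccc
Ccl6 promoter, chr11:83593088-83593237, minus strand: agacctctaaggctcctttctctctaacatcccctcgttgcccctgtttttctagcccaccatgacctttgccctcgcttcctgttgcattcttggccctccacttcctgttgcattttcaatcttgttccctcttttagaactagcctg
Cxcl1 promoter, chr5:90891095-90891244, plus strand: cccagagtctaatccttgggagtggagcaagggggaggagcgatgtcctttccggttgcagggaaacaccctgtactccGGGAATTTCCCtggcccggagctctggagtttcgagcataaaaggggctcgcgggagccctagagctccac
Cxcl2 promoter, chr5:90903749-90903898, plus strand: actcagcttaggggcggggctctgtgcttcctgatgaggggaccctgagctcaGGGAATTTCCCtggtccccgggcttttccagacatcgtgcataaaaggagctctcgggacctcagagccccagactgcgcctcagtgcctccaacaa
Ccl9 has an AP-1 match whose first base lies 53 bases before the start and an NF-κB match 35 bases before it. Ccl6 has neither. Cxcl1 and Cxcl2 carry the same run, GGGAATTTCCC, which matches NF-κB in 2 overlapping frames, one on each strand, from 71 bases before the start of Cxcl1 and from 97 bases before that of Cxcl2. Over 300-base windows that also took in 50 bases after the start, the table held 46 of the 60 expressed genes, and not Il1f6, Cxcl17 or Ccl11. An AP-1 match was present for 9 of the 46 (19.6%) and for 8.97% of all 27025 genes with a promoter entry. An NF-κB match was present for 8 (17.4%) against 5.14%, and a STAT match, TTCNNNGAA, for 6 (13.0%) against 9.55%. The 27025 genes were not filtered by level, so these shares compare unlike sets. The shares among all expressed genes were not computed. Of the 5 genes past 1.5-fold with an entry, 2 had an NF-κB match, 1 an AP-1 match and 1 a STAT match. These are matches of letters in short windows and describe no binding.

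Other listed genes of these pathways are set against all expressed genes, of which 1.72% were lower and 1.05% higher past 1.5-fold. In lists this short, no gene past the threshold is close to those shares. Of 22 expressed JAK, STAT and SOCS genes, none was past 1.5-fold in either direction, and the median difference was 0.04. Socs1, an inhibitor of JAK kinases, was at 4.34 and 2.99 FPKM, a difference of -0.42, and Stat3 was at 46.0 and 47.2 FPKM. Of 25 expressed genes of MyD88 and NF-κB signalling, none was past 1.5-fold and the median was -0.02, with Myd88, the adaptor of IL-1 family receptors, at 35.4 and 35.9 FPKM and the NF-κB inhibitor Nfkbia at 54.6 FPKM at 2 months and a difference of -0.12. Of 21 expressed cytokine genes and receptors of other families, none was past 1.5-fold. Among chemokine genes that the name rule does not take in, 5 were expressed and Pf4 was past 1.5-fold, with a difference of -0.76.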

How the data were processed

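Taste cell RNA came from 3 pooled libraries at 2 months and 3 at 6 months. The authors mapped poly-A RNA reads to GRCm38/mm10 with TopHat2 2.0.7, estimated RefSeq genes with Cufflinks 2.1.1 and compared the ages with Cuffdiff, and deposited 1 FPKM per gene and age. The library normalization is not given in the sources used here. FPKM is scaled to length and total, so depth and counting intervals are unknown, and a value of 0 can be a failed estimate. The columns were tied to the ages through the group letters in the titles. The series text names 3 months in 1 place, and the sample labels give 2 months. The deposited p-value column holds the authors' own comparison and was not used.

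Differences were computed as log2(FPKM + 1), 6 minus 2 months, with a mean of at least 1 FPKM as filter and 1.5-fold as size threshold, in Python 3.11.15 with numpy 2.4.6 and pandas 2.3.3. Plots were drawn with matplotlib 3.10.9. The calculation was checked on simulated data with large planted differences, which gives no error rate for the thresholds in these data. Coordinates came from RefSeq on GRCm38.p6, matched by symbol for 134 genes and by older symbol for 2. Genes named were the 20 highest by mean, expressed genes past 1.5-fold, and partners in ligand and receptor pairs where both were expressed or either was already named. Other named genes were chosen after their values were seen. Members and lists were chosen with earlier results of these data known. Alternatives were another pseudocount, filter, fold and scaling. Some single genes are not reported here.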

Additional observations from a re-analysis of the deposited data

How the results depend on the processing

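The number of chemokine, interleukin and receptor genes counted as expressed, 60, became 99 at a minimum mean of 0.1 FPKM, 121 with any value above 0 and 33 at a minimum mean of 5 FPKM. The number lower at 6 months, 35, became 67 with no filter and 22 at a minimum mean of 5 FPKM. It was 27 after scaling both ages to the same total without microRNA and small nucleolar RNA genes, which multiplied 6 month values by 1.07 and moved the median of all expressed genes to 0.07. Under that scaling the median of the group turned from -0.03 to 0.03, and the same 8 genes stayed past 1.5-fold. The count past 1.5-fold lower at 6 months, 7, was 3 at 2-fold, 5 at a minimum mean of 5 FPKM and 9 with a pseudocount of 0.1, which added Il10 and Il20ra. The count higher, 1, was 0 at 2-fold and 3 with a pseudocount of 0.1, which added Ccl22 and Il22ra1, where 2.17% and 1.46% of all expressed genes were lower and higher. Of 40 named expressed genes, none changed sign with a pseudocount of 0.1, 2 did after upper quartile scaling (Il10ra and Il1rl2) and 7 after scaling to the same total (these and Ccl3, Ccr1, Cxcl16, Cxcr2 and Il13ra1), all with a reported difference of at most 0.08 log2 units in size. No paired analysis was possible because only 1 value per age was given, and for the same reason no library could be left out. Depth is unknown, so differences of genes near 1 FPKM could not be set against counting error.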
